A study of Mus musculus with 12 samples.

Results

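A 3' splice site is the end of an intron, where the spliceosome joins the next exon. Where an intron has several possible 3' splice sites, the one nearer to the donor (the 5' splice site that opens the intron) gives a shorter intron and a longer exon. Distant alternative 3' splice sites are here the sites that add more than 50 nt to the exon, counted upstream from the reference site of the same event. An event is the set of competing 3' splice sites of one exon, numbered from the reference site (1 of n) to the site nearest the donor (n of n). The sites were chosen by their event type, an added length over 50 nt and a site number of 2 or more, with at least 10 inclusion plus exclusion reads in all 12 libraries. This left 5634 sites, in 4808 events and 3377 genes, out of 24291 alternative 3' splice sites (reference sites left out) and 401633 splicing events of all kinds. The 8090 sites that met the rule on type and length alone included those with fewer reads. Added length ran from 51 to 498 nt with a median of 93 nt. For 5610 of the 5610 sites whose positions could be read together with the reference site, the distance between them equalled the added length and the distant site lay nearer the donor.

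Puf60 binds RNA and resembles the large subunit of U2AF. It takes part in recognition of the 3' splice site, where a pyrimidine-rich stretch before the terminal AG dinucleotide recruits U2AF and then the U2 snRNP. Competing 3' splice sites of one intron are chosen at this step, and strong and weak pyrimidine tracts are a textbook source of their different use. In the cells studied here Puf60 was depleted by siRNA and then restored from a cDNA with or without its exon 5.

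RNA was sequenced from N2A cells, a mouse neuroblastoma line. Both stable lines carried the Flp-In rtTA3 system with a doxycycline-inducible, siRNA-resistant, 3xFlag-tagged Puf60 cDNA, which included exon 5 in the pEx5 line and lacked it in the mEx5 line. In each line the control group received non-targeting siRNA, the knockdown group received Puf60 siRNA, and the induction group received Puf60 siRNA with doxycycline, all at 15 nM siRNA, with doxycycline at 2 µg/ml for 24 h and harvest at 48 h. Each of the 6 groups had 2 libraries, A and B, labelled as biological duplicates. Whether they came from separate cultures is not stated, so the p-values measure the spread between these libraries, which may be technical. Doxycycline was never combined with the non-targeting siRNA, and thus its own action and that of the restored Puf60 cannot be told apart. Each cDNA was studied in its own stable line, so the cDNA and the line cannot be told apart either.

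In the authors' deposited expression table Puf60 stood at 107 RPKM (reads scaled to transcript length and library size) in pEx5 control, 22.1 in knockdown and 246 in induction. In mEx5 the values were 103, 25.2 and 202. Tubb3, Stmn2, Gap43 and Elavl4, markers of neuronal and neuroblastoma cells, were at 107 to 444 RPKM in every group, whereas Dcx, Nefl and Nefm were at 0.04 RPKM or less and Th at no more than 0.62. Astrocyte, oligodendrocyte, fibroblast, endothelial and blood markers were each at 2.97 RPKM or less. Gfap, an astrocyte marker, was at 0.55 to 1.5 RPKM in the control and induction groups and at 2.37 and 2.97 in the knockdown groups, and its part in the results was not tested. The median read number per distant site ran from 139 in mEx5 induction B to 254 in pEx5 control A.

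Use of a site is given as PSI, here the percent of the event's reads that join to that site. Of the 5634 sites, 2801 had a mean PSI under 5 and 2055 a mean over 95, so most distant sites were either nearly silent or used nearly always. The remaining 778 sites, in 681 events and 639 genes, with a mean PSI from 5 to 95 over all 12 libraries, knockdown included, were tested. Among the sites not tested, 3 moved by 10 points or more on knockdown in the mean of both lines, and these are named because their values were seen. The control means of Mast3 site 2 of 2 were 100.0 in each line, and its knockdown means were 91.2 in pEx5 and 86.9 in mEx5. In Ubn1 site 2 of 2 the control means were 2.4 and 0.8 and the knockdown means 10.9 and 12.4. In Fryl site 3 of 3 they were 0.0 and 1.8, then 18.6 and 6.8. Beside the length threshold, the site of 50 nt with the most reads, in Rpl13, ran from 7.4 to 9.6 in the 6 group means. Just inside the threshold, the Tial1 site of 51 nt is given with the named sites below.

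Sequences at the competing sites show how the tracts compared. The splicing positions in the deposited table are on an assembly that is not stated and do not match GRCm38. Sites were therefore matched to GENCODE M21 (GRCm38) by chromosome, strand, intron length and added length, and the bases were read from GENCODE transcripts. A unique match was found for 920 of the distant sites, and the gene name was the same in 909 of them. Each line below gives 27 intron bases in lower case and the first 3 exon bases in capitals, 5′ to 3′ on the strand of the gene, with GRCm38 positions. The sites shown are those of named events with 2 sites that could both be read, the readable sites of Sept8, where the gaining site could not be read, and the reference sites of 3 of the largest falls. Ifi27l1 is listed as Ifi27 in GENCODE, for which RefSeq's table gives Ifi27l1 as a synonym.
Sept8 site 2 of 3, fell, chr11:53541183-53541212, plus strand: tttgtttgtttcgtttttatttttcagTTA
Sept8 reference site, chr11:53541448-53541477, plus strand: aaaactgacaaggtttattttttccagAGC
Tial1 site 2 of 2, rose, chr7:128448768-128448797, minus strand: atgttttttcctggattttcttctcagCAA
Tial1 reference site, chr7:128448717-128448746, minus strand: tcttctgttggattttctgttttgcagCAT
Setd5 site 2 of 2, rose, chr6:113110290-113110319, plus strand: tgttgatttaaaaaatcttattttcagGAT
Setd5 reference site, chr6:113110347-113110376, plus strand: acacctcctgcttctccccctgtccagACG
Zfp40 site 2 of 2, rose, chr17:23191506-23191535, minus strand: cttccttcaagtatattcttttgacagGTG
Zfp40 reference site, chr17:23191433-23191462, minus strand: tctgaggaatatctttctcgcatgcagATC
Hdac10 site 2 of 2, rose, chr15:89124426-89124455, minus strand: gttgggtgagaacactgcttcccatagGTG
Hdac10 reference site, chr15:89124251-89124280, minus strand: atggccctggtgctttctcttgagaagGAG
Zbtb43 site 2 of 2, rose, chr2:33465035-33465064, minus strand: agttttcaatgtgatttttcctttcagAAC
Zbtb43 reference site, chr2:33464972-33465001, minus strand: atgcattctctctctgtatccattcagACT
Fbxw2 site 2 of 2, rose, chr2:34823065-34823094, minus strand: ctaatataatattttgatgtgccacagGTA
Fbxw2 reference site, chr2:34822973-34823002, minus strand: acatttctttctctgacggacttgcagAAA
Myo9b site 2 of 2, fell, chr8:71359531-71359560, plus strand: cagtaaccccgagtctgtctctccaagGGC
Myo9b reference site, chr8:71359637-71359666, plus strand: aaggccgacatccttcgtcacggtcagAGT
Ankrd44 site 2 of 2, fell, chr1:54735111-54735140, minus strand: ctgcggtgtttcttgtggtttaactagGAC
Ankrd44 reference site, chr1:54735057-54735086, minus strand: ttagtaatgagcacgtgctgtctgcagGCT
Ifi27l1 reference site, chr12:103437423-103437452, plus strand: gtgacttcagattttccttccccgcagCAG
Pdlim5 reference site, chr3:142312212-142312241, minus strand: aaacctgcagttaatgtcccacggcagCCC
Hspb2 reference site, chr9:50751449-50751478, minus strand: tctgtcgcacctatgtcctgcctgcagATG
The inner Sept8 site follows the tract richest in thymine of those shown, with 78.9% thymine over the 19 bases from 22 to 4 bases before the exon. Among the reference sites shown that took over the use lost by the distant site, those of Pdlim5, Hspb2, Ankrd44 and Myo9b had 26.3% each and that of Ifi27l1 had 42.1%. Reference sites of other named falls, not shown, had 47.4% in Gin1 and Zbtb25, 42.1% in Unc79 and 21.1% in Tradd.

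The first question was what Puf60 depletion did to these sites in the mean of both lines. Of the 778 sites tested, 103 rose and 48 fell on knockdown (limma weighted logit fit, Benjamini-Hochberg adjusted p under 0.05 and a change of at least 10 PSI points). Of all 22767 splicing events tested in the same fit 16.7% were called, 4.92% higher and 11.8% lower. Among the distant sites the shares were 13.2% higher and 6.17% lower, so higher calls outnumbered lower ones, the reverse of all events. The mean PSI that admitted an event to the test included the knockdown libraries, so these directions were in part fixed by that choice. Of the 103 rises, 56 had a control PSI under 20. The control PSI was above 80 for 4917 of 8524 exons and 244 of 778 distant sites, and these shares are descriptions only. Lower calls outnumbered higher ones mainly among exons, and introns had 6.31% higher and 1.86% lower. The median rise was 18.2 points and the median fall -17.1 points, and 44 rises and 20 falls passed 20 points. All 4 knockdown libraries lay above all 4 control libraries at 158 sites (20.3%) and below them at 87 (11.2%), against 10.6% and 18.5% of all events tested. The median change over the tested sites was 1.08 points, and over all tested events -0.47.

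**Figure D1:**
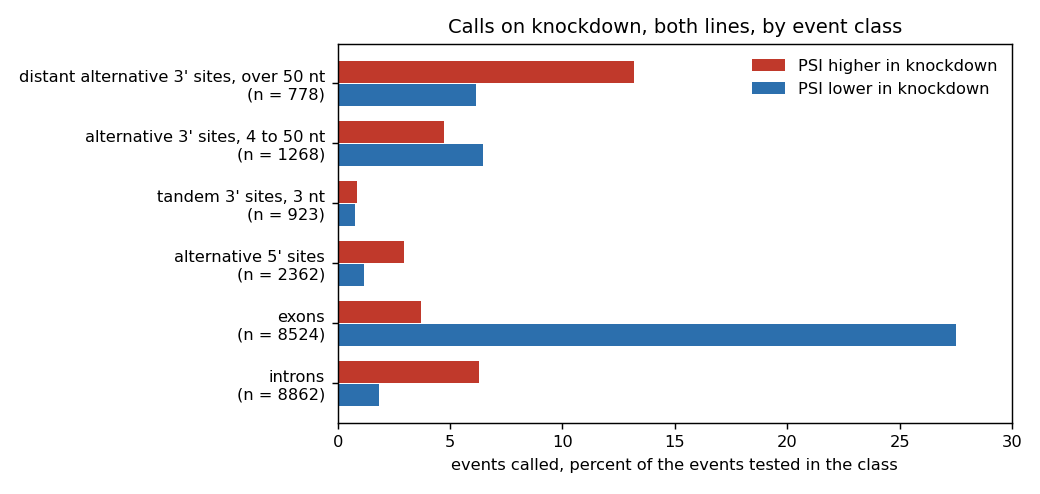
Percent of tested events (x axis) called higher (red) or lower (blue) on knockdown in both lines, for 6 classes of event (y axis, with the number tested). Distant 3' splice sites had 13.2% higher and 6.17% lower calls, and exons had 3.73% higher and 27.5% lower.

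The shorter alternative 3' splice sites of the same table did not give the same figures. Of 1268 sites that added 4 to 50 nt, 4.73% were called higher and 6.47% lower. Of 923 tandem sites that added 3 nt, 0.867% were higher and 0.758% lower. Alternative 5' splice sites were called higher in 2.96% and lower in 1.19% of 2362. These shares are descriptions, and the difference between classes was not tested. The control PSI of the classes also differed, with 244 of the 778 distant sites and 522 of the 1268 sites of 4 to 50 nt above a control PSI of 80.

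Within the distant sites, the share of rises was close between the lengths. Rises were 13.4% of the 463 sites that added 51 to 100 nt, 12.8% of the 297 that added over 100 to 300 nt and 3 of the 18 longer ones. Falls were 4.8%, 8.1% and 2 of 18. The calls varied with the control PSI. Of 295 sites with a control PSI under 20, 56 rose and 4 fell, of 239 from 20 to 80, 45 rose and 25 fell, and of 244 above 80, 2 rose and 19 fell. A rise from near 100 or a fall from near 0 is bounded by the scale. The mean PSI that admitted a site to the test also included the knockdown and induction libraries. A site near 0 in the controls could thus enter only by being higher in other groups, and a site near 100 only by being lower. The directions by control PSI were in part fixed by this choice and are descriptions only. Where the added length, counted to the reference site, was a multiple of 3, 51 rose and 19 fell of 277. Where it was not, 52 rose and 29 fell of 501. These counts do not show whether a reading frame was kept, because in 33 called events neither exchanging site was the reference.

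The sites of one event share their reads, so 1 site can rise only as another falls. The 151 called sites lay in 139 events, and in 11 of the 12 events with 2 called sites the sites moved in opposite directions. The site farthest from the reference in its event rose in 96 and fell in 32 of 632 cases. An inner site rose in 7 and fell in 16 of 146. For 138 called events with all sites listed, the site that lost most use was compared with the site that gained most. Use moved toward the donor in 100 events and away from it in 38. Distant sites lie nearer the donor than their reference site, so a rise is mostly counted as a move toward the donor. These counts thus largely restate the rises and falls above and are not a separate result. In 539 events with no called site, the same measure pointed toward the donor in 293 (54.4%, against 72.5% of the called events). The reference site was the main loser in 75 called events and the main gainer in 30, and in 33 events both exchanging sites lay upstream of it. The exchanging sites were within 50 nt of each other in 10 called events, although each such event holds a site more than 50 nt from its reference.

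The tracts of the exchanging sites were read at both sites in 22 called events. The site that gained use was richer in thymine in 12 of them, the site that lost use in 6, and 4 were equal. All 12 were among the 18 events in which use moved toward the donor. In the 78 events with none called, the gaining site was richer in 25 and the losing site in 44. By position instead, the distant site exceeded the reference site by a median of 5.3 percentage points of thymine at 18 rising sites and 5.2 at 88 sites not called, so these hardly differed, and by 15.8 at 6 falling sites. The thymine share before the distant site had a median of 47.4% for 18 sites that rose, 47.35% for 6 that fell and 36.8% for 88 not called. Before the reference site the medians were 42.1% for 47 rises, 31.6% for 25 falls and 36.8% for 262 not called. A run of 4 thymines, TTTT, searched on the gene's strand in the 19 bases, was found before 11 of 18 rising distant sites, 1 of 6 falling ones and 24 of 88 not called, and before 25.5% of all 255 distant sites read. The median share of pyrimidines before the reference site was 68.4% in all of these sets. A tract could be read only where an exon of some GENCODE transcript covered its intron bases. Of the 909 matched distant sites this held before 255, and before the reference site of 897. The sites read may differ from the rest, and the numbers of called sites read are small.

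**Figure D2:**
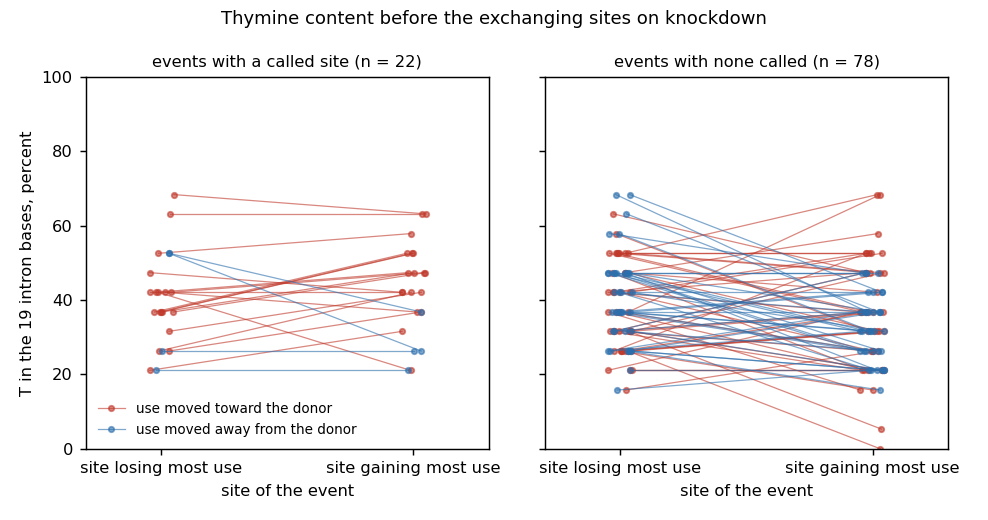
Thymine in the 19 intron bases from 22 to 4 before the exon (y axis, percent) at the site that lost most use and the site that gained most use on knockdown (x axis), one line per event. Red lines are events whose use moved toward the donor, blue lines away from it. The gaining site was richer in 12 of 22 called events (left) and in 25 of 78 events with none called (right).

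The sites named next for knockdown were chosen among calls with no overlap of knockdown and control libraries. Their separation was thus fixed by the choice. The largest rise was in Sept8, which encodes a septin, a GTP-binding protein that forms cytoskeletal filaments. Site 3 of 3 (chromosome 11, plus strand, position 53354532 as deposited) adds 445 nt, and had 277 to 547 reads per library. Its PSI was 32.1 and 38.6 in pEx5 control, 88.9 and 87.6 in knockdown, 37.9 and 34.7 in mEx5 control and 89.6 and 88.7 in knockdown. The change was 52.9 points in the mean of both lines (logit change 2.64 ± 0.12 SE, limma adjusted p = 4.21e-08). Site 2 of 3, at position 53354712 and 265 nt from the reference, gave up that use. Its PSI was 64.6 and 60.4 in pEx5 control, 4.2 and 3.1 in knockdown, 60.6 and 63.6 in mEx5 control and 4.9 and 5.4 in knockdown, a fall of -57.9 points (adjusted p = 1.32e-08). The reference site stayed minor, at 1.6 to 8.1 in the 6 group means, so the exchange in Sept8 was between the 2 distant sites, 180 nt apart.

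Cenpt encodes a centromere protein that links chromosomes to the kinetochore. Its site 2 of 2, with 56 nt added, read 14.2 and 10.0 in pEx5 control, 50.5 and 59.8 in knockdown, 14.4 and 11.7 in mEx5 control and 47.8 and 60 in knockdown. The change was 41.9 points (adjusted p = 6.73e-06). Rad51ap1 encodes a protein of DNA repair by homologous recombination, and its site 5 of 5 (111 nt) read 2.6 to 6.9 in the 4 controls and 34.6 to 43.3 in the 4 knockdown libraries. Use came mainly from site 4 of 5, which is 52 nt nearer the reference and fell by 28.8 points (adjusted p = 6.66e-05). That site fell by 37.6 points in pEx5 and by 19.9 in mEx5, where its controls read 88.7 and 74.8. In mEx5, site 2 of 5 also went from a mean of 13.4 in control to 0.0 in knockdown. Lin9, a subunit of the MuvB complex that controls cell cycle genes, rose at site 3 of 3 (94 nt), from 21.9 to 28.3 in controls to 55.7 to 60.2 in knockdown (32.8 points, adjusted p = 0.000116).

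Tial1 encodes TIAR, an RNA-binding protein with a preference for uridine-rich RNA. Site 2 of 2 adds 51 nt, the lowest length in the set, within coding sequence, and had 134 to 262 reads. Its PSI was 26.7 and 30.8 in pEx5 control, 67.4 and 69.1 in knockdown, 30.1 and 22.6 in mEx5 control and 58.5 and 58.5 in knockdown. The change was 35.8 points (logit change 1.52 ± 0.15 SE, limma adjusted p = 2.17e-05). As the sequences above show, both Tial1 sites follow thymine-rich tracts, at 63.2% each.

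Dhdds encodes a subunit of the enzyme that makes the long-chain precursor of dolichol. Its site 2 of 2 adds 54 nt in the 5' UTR and had 407 to 725 reads. PSI was 56.1 and 62.5 in pEx5 control, 96.8 and 96.2 in knockdown, 54.9 and 56.0 in mEx5 control and 92.9 and 93.4 in knockdown. The site thus went from moderate to almost exclusive use (37.4 points, adjusted p = 5.81e-08). D14Abb1e, whose site adds 274 nt, rose by 35.9 points (adjusted p = 7.54e-06) and Zfp790, a zinc finger gene, by 34.7 points (adjusted p = 0.00075). The named rises with the fewest reads were in Cox5b, Rpl39, Rpl26 and Lyrm1. Cox5b, a subunit of cytochrome c oxidase, had 11 reads in its lowest library, and its PSI rose by 49.3 points (adjusted p = 0.00111). Rpl39 and Rpl26, proteins of the large ribosomal subunit, had 18 and 20, with changes of 40.7 and 38.3 points. Processed copies of ribosomal protein and Cox5b genes exist in the genome, and how reads shared with copies were counted is not known here, so these 3 are uncertain. Lyrm1 had 13 reads in its lowest library and rose by 32.3 points (adjusted p = 0.00829).

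**Figure D3:**
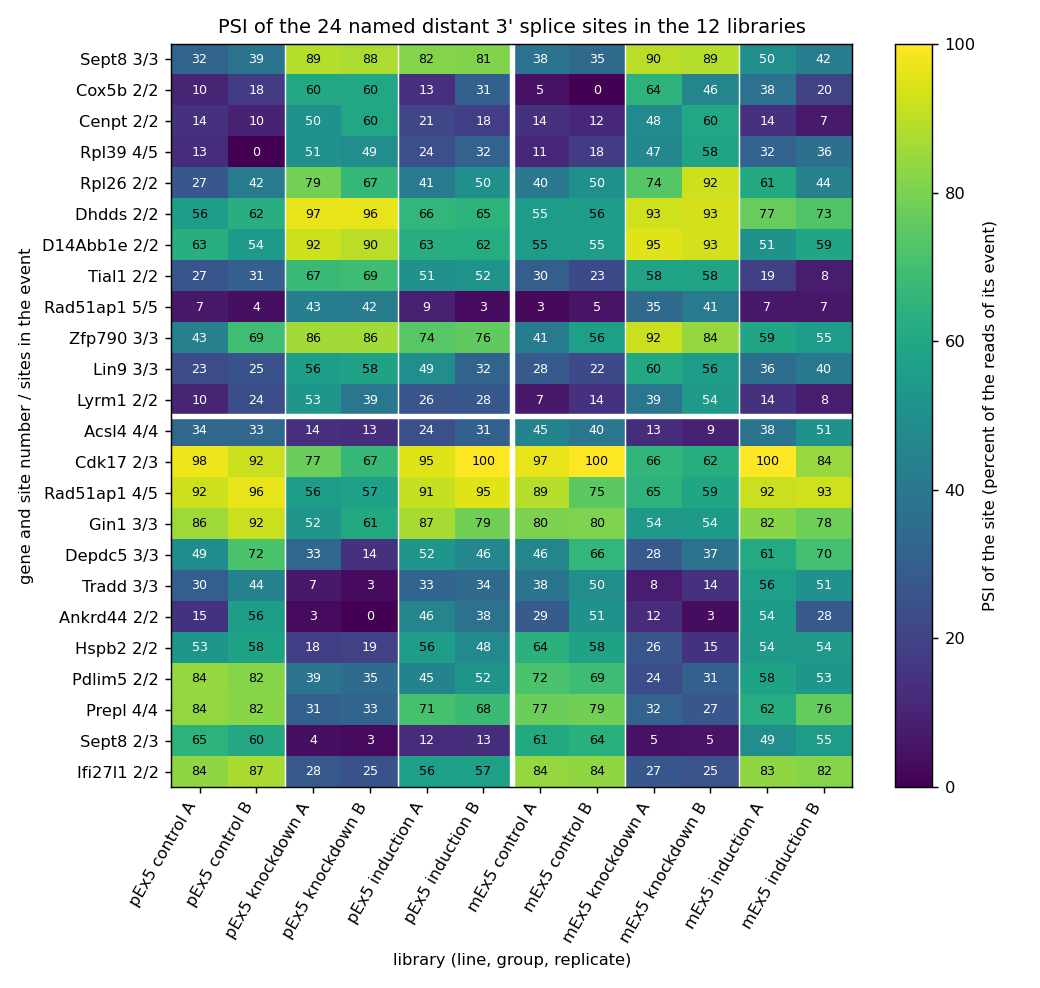
PSI of the 24 named distant sites (rows, 12 rises above and 12 falls below the white line) in the 12 libraries (columns, by line, group and replicate); colour and printed number give PSI in percent. The sites were chosen with no overlap of knockdown and control libraries, so the separation of these columns was fixed by the choice. Sept8 site 3 of 3 had 87.6 to 89.6 in knockdown against 32.1 to 38.6 in controls.

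The largest fall was in Ifi27l1, which belongs to a family of interferon-inducible membrane proteins. Site 2 of 2 (chromosome 12, plus strand, position 104675600 as deposited) adds 60 nt of coding sequence and had 334 to 751 reads. PSI was 83.5 and 87.3 in pEx5 control, 28.0 and 25.3 in knockdown, 84.2 and 83.5 in mEx5 control and 27.2 and 25.4 in knockdown. The longer exon was the main form in all 4 controls and the minor form in all 4 knockdown libraries, a change of -58.1 points (logit change -2.72 ± 0.10 SE, limma adjusted p = 1.22e-08).

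Prepl encodes a serine hydrolase of the prolyl endopeptidase family. Its site 4 of 4, with 436 nt added, read 77.4 to 83.7 in the 4 controls and 27.1 to 32.8 in the 4 knockdown libraries (-49.9 points, adjusted p = 7.05e-07). The site with 3 nt added, at 15.0 in pEx5 control and 18.6 in mEx5 control, had a mean of 55.4 in each knockdown group, and this took most of the loss. Over the event, the mean added length fell by 202 nt, the largest shift among the called events.

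Pdlim5 encodes a PDZ and LIM domain protein of the actin cytoskeleton. Site 2 of 2 (chromosome 3, minus strand, position 141975505 as deposited) adds 327 nt. It read 84.2 and 81.8 in pEx5 control, 38.6 and 34.8 in knockdown, 71.5 and 69.0 in mEx5 control and 24.0 and 30.8 in knockdown. The mEx5 libraries were lower than the pEx5 libraries in both groups, and the fall was similar in each line, at -46.3 and -42.9 points. Hspb2, a small heat shock protein, went from 52.6 to 64.1 in controls to 14.7 to 26.5 in knockdown at a site that adds 282 nt (-38.4 points, adjusted p = 3.82e-05).

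The other named falls were smaller. Tradd, an adaptor of the TNF receptor, fell by 32.5 points at site 3 of 3 (177 nt), and Depdc5, a subunit of the GATOR1 complex that restrains mTORC1, fell by 29.8 at site 3 of 3 (122 nt). In Depdc5 the gaining site was only 27 nt away, at 95 nt from a reference site that read 0.0 in every group mean. Acsl4, an acyl-CoA synthetase for polyunsaturated fatty acids, fell by 25.6 points at site 4 of 4 (293 nt, in the 5' UTR). Cdk17, a cyclin-dependent kinase, lost 28.6 points at site 2 of 3 while site 3 of 3 had control means of 3.8 and 1.7 and knockdown means of 26.9 and 34.8. Gin1, a retrotransposon-derived integrase gene, fell by 29.2 points at site 3 of 3 (267 nt). Ankrd44, an ankyrin-repeat gene, fell by 32.9 points (adjusted p = 0.0283) with 11 reads in its lowest library and controls that spread from 14.7 to 56.2. Its call was lost without mEx5 control B, and without any one of the 4 knockdown libraries. That of Cdk17 was lost without mEx5 control A and that of Depdc5 without pEx5 knockdown B. The remaining calls among the 24 named sites kept their side of the threshold with each library left out.

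Among the gene families grouped by symbol, zinc finger genes had 5 rises and 1 fall among 28 sites tested (21.4%, close to the 19.4% of all tested distant sites), with a family median change of -2.02 points against 1.08 over all tested sites. The rises were in Zfp790, Zfp90 (30.6 points), Zfp40 (29.0), Zfp949 (23.8) and Zbtb43 (19.6), and the fall was in Zbtb25 (-15.0). The Zfp949 call (adjusted p = 0.0448) was lost when any of 6 single libraries was left out. Chromatin modifier genes had 3 rises and no fall among 7 sites, with a family median of 4.46. Setd5, a SET domain protein, had a PSI of 42.0 to 50.6 in the 4 controls and 65.2 to 73.4 in the 4 knockdown libraries. Hdac10, a deacetylase, rose by 21.5 points and Chd2, a chromatin remodeller, by 17.5, with 13 and 24 reads in their lowest libraries. The Hdac10 and Chd2 calls were each lost in several of the fits that left out 1 library.

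Ubiquitin enzymes had 2 rises and 3 falls among 25 sites (20.0%, also close to that share), with a median of 0.74. Herc1, a HECT-type ligase, fell by 22.2 points, whereas Fbxw2, an F-box protein, rose by 15.4. Usp36, a nucleolar deubiquitinase, exchanged its sites at 55 and 89 nt (16.5 and -16.9 points). In the group of motor and cytoskeleton symbols all 5 sites tested were called. Map4k4, a protein kinase that entered this group by the start of its symbol, rose by 23.3 points, from 44.3 to 53.4 in controls to 70.0 to 73.0. The mitotic kinesins Kif20b and Kif15 rose by 15.9 and 15.0, and Myo9b, an unconventional myosin, and Kif1b, an axonal transport kinesin, fell by 19 and 10.9. Membrane traffic genes had 2 rises and 1 fall among 9 sites, of which 2 were the exchanging sites of Vps54, a subunit of the GARP tethering complex. Snx2, a sorting nexin, rose from 0.7 to 1.9 in controls to 12.5 to 19.1 in knockdown, with 681 to 1124 reads. Centrosome genes had 1 rise among 3 sites, in Cep78 (21 points). No site was called among 27 in solute carriers and channels, 6 in the RNA binding and splicing symbols and 5 in genes of the mitochondrial ribosome and complex I. The groups go by the start of the symbol, and RNA-binding or RNA-processing genes outside that group were called, among them Tial1, Tardbp (22.41 points), Srpk1 (18.15), Cstf2 (14.86) and Pcbp4 (-12.45), which were named after their values were seen.

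Taken line by line, knockdown raised 84 and lowered 39 of the 778 sites in pEx5, and raised 60 and lowered 34 in mEx5. The background over all events was 13.9% called in pEx5 (3.71% higher, 10.2% lower) and 11.7% in mEx5 (3.04% higher, 8.65% lower). The lines share no library, but both comparisons used 1 spread estimate per event from all 12 libraries. The calls of the lines are thus not independent, and their overlap over all events was not counted. Of the sites called in each, 73 were in common, which is 59.3% of the pEx5 calls and 77.7% of the mEx5 calls, and all 73 had the same sign. Across the 778 sites the changes of the lines had a Pearson's r of 0.801, given as a description across sites that share libraries. No site was called for a different knockdown change between the lines (0.0% of all events; 29 distant sites had an unadjusted p under 0.05 in limma). A difference that misses this threshold is not shown to be absent. The mEx5 count fell to 51 without control A, 49 without control B and 58 without knockdown A.

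**Figure D4:**
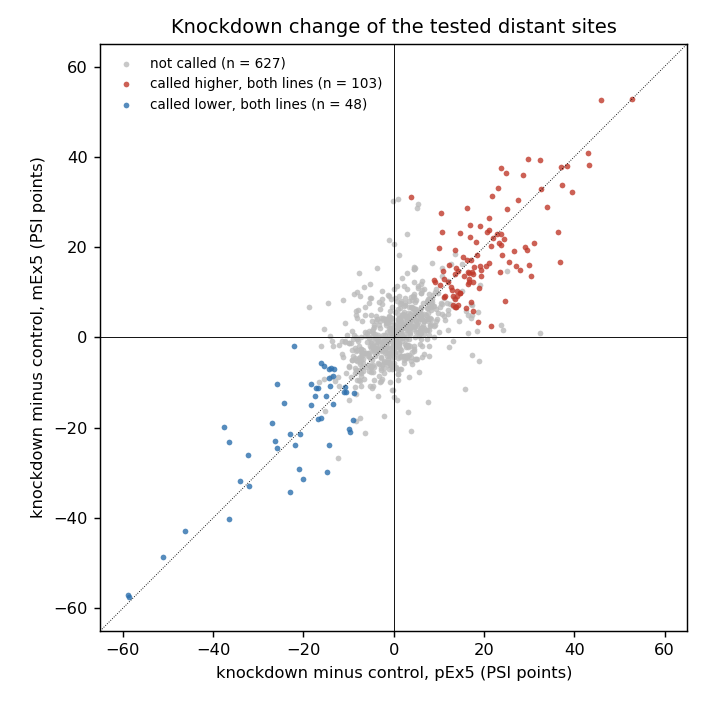
Change of PSI on knockdown in pEx5 (x axis) and mEx5 (y axis), in points, for the 778 tested sites; red and blue points are the 103 rises and 48 falls called in the mean of both lines, and the dotted line marks equal change. The called sites lie along the diagonal in the upper right and lower left. A call needs a mean change of at least 10 points over both lines, so this placing was in part fixed by the choice.

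The authors' deposited table of True and False calls names 1 row per event and not per site. Its group score for an event lay within 1 point of the rank-weighted use of the event's sites (0 for the reference, 1 for the farthest site) in 86.9% of 27780 event and group values. In pEx5 the authors' deposited table had 306 of 4785 events with a distant site as True on knockdown (6.39%), against 3.63% of all events. In mEx5 the authors' deposited table had 255 of 4785 (5.33%), against 3.03%. The scores of the True events moved up in 191 and down in 108 in pEx5, and up in 161 and down in 86 in mEx5. Of the 114 events with a site called in pEx5 in the fit here, 113 had a call in the authors' deposited table and 112 were True. In mEx5 86 of 87 had a call in the authors' deposited table and all 86 were True. Cenpt has no value for its event in the authors' deposited table.

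The next question was what the restored Puf60 did. Induction was compared with knockdown within each line, and these comparisons share the knockdown libraries with the comparisons above, so the values are given side by side only. In pEx5, induction raised 17 and lowered 33 of the 778 sites. In mEx5 it raised 33 and lowered 50. The background was 6.2% of all events in pEx5 (5.01% higher, 1.19% lower) and 9.25% in mEx5 (7.14% higher, 2.11% lower). There were 33 sites called in each line, which is 66% of the pEx5 calls and 39.8% of the mEx5 calls, and all had the same sign. These calls also share the spread estimate, and their overlap over all events was not counted. Leaving out single libraries moved these counts. The pEx5 count was 27 and 31 without knockdown A and B and 30 and 24 without induction A and B, and the mEx5 count was 45 and 42 without knockdown A and B and 30 and 42 without induction A and B.

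Several sites went back to near the control level in both lines. Rad51ap1 site 5 of 5 read 8.8 and 2.9 in pEx5 induction and 6.8 and 6.6 in mEx5 induction, within or close to the control range of 2.6 to 6.9. The change from knockdown was -36.8 points in pEx5 (adjusted p = 0.0004) and -31.0 in mEx5 (adjusted p = 0.0015). Cenpt read 21.2 and 18.5 in pEx5 induction and 14.4 and 7.4 in mEx5 induction, against 10.0 to 14.4 in controls. Hspb2 read 55.7 and 47.9, and 54.2 and 54.2, against 52.6 to 64.1 in controls. D14Abb1e read 62.7 and 61.9, and 50.8 and 59.2, against 54.2 to 63.0.

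In Unc79, part of the NALCN sodium leak channel complex, site 2 of 2 (159 nt) had a PSI of 37.3 to 46.0 in controls and 11.1 to 21.1 in knockdown. Induction gave 56.0 and 50.6 in pEx5, above the controls, and 31.4 and 32.0 in mEx5, below them. The change was 35.5 points in pEx5 (adjusted p = 0.0071) and 15.6 in mEx5 (adjusted p = 0.076), and the difference of 19.9 points between the lines did not pass (adjusted p = 0.69). Adcy7, an adenylate cyclase, was lowered by 47.6 points in mEx5 (adjusted p = 0.03) and changed by -28.5 in pEx5 (adjusted p = 0.17), with 13 reads in its lowest library.

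A different induction change between the lines was called at 3 of the 778 sites, against 0.127% of all events. In Sept8, site 3 of 3 stayed at 81.5 and 80.9 in pEx5 induction but read 49.7 and 41.9 in mEx5 induction, after 87.6 to 89.6 in the 4 knockdown libraries. The change was -7.1 points in pEx5 and -43.4 in mEx5, a difference of 36.3 points (adjusted p = 0.018). Site 2 of 3 mirrored this, at 11.9 and 13.2 in pEx5 induction and 49.4 and 54.8 in mEx5 induction, a difference of -38.1 points (adjusted p = 0.045). The 2 Sept8 sites share reads and are one observation. Ifi27l1 read 56.3 and 56.9 in pEx5 induction and 83.4 and 81.8 in mEx5 induction, with rises of 29.9 and 56.2 points and a difference of -26.3 (adjusted p = 0.021). At these 3 sites the induction libraries of the lines did not overlap, and the mEx5 libraries were the nearer to the controls. All 3 calls were lost with no weights and with no limit on the mean PSI. They were also lost without any single knockdown library of either line, without pEx5 induction A or B, and without mEx5 induction B, and 1 remained without mEx5 induction A.

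Tial1 and Pdlim5 had unequal values that did not pass this test. Tial1 read 50.6 and 51.9 in pEx5 induction and 19 and 8.2 in mEx5 induction, a difference of 27.9 points (adjusted p = 0.15). Pdlim5 read 45.0 and 51.7 in pEx5 induction and 58.2 and 52.9 in mEx5 induction, a difference of -16.5 (adjusted p = 0.33). In Herc1 site 3 of 4 induction gave 34.1 and 31.8 in pEx5 and 62.1 and 54.5 in mEx5, after 26.5 to 37.6 in the knockdown libraries, a difference of -19.3 points (adjusted p = 0.38). In Dhdds the pEx5 libraries were the nearer to the controls (54.9 to 62.5). Induction gave 66.2 and 64.7 in pEx5 and 76.6 and 73.0 in mEx5, a difference of -12.6 points (limma adjusted p = 0.14). Hdac10 read 64.3 and 48.3 in pEx5 induction and 8.2 and 15.2 in mEx5 induction, against 23.0 to 41.5 in controls. This difference was 39.8 points (limma adjusted p = 0.41).

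**Figure D5:**
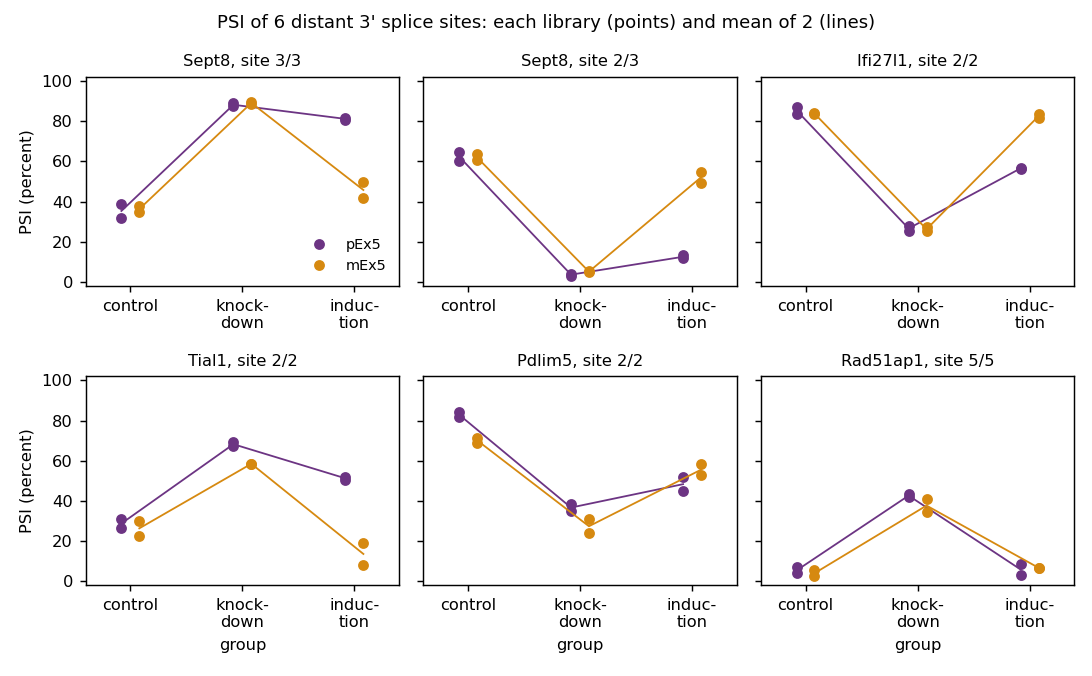
PSI (y axis, percent) of 6 distant sites in control, knockdown and induction (x axis) for pEx5 (purple) and mEx5 (orange); points are libraries and lines join the means of 2. In both Sept8 sites and Ifi27l1 the mEx5 induction libraries lie near the controls and the pEx5 libraries do not, while Rad51ap1 is low in both lines.

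Against the controls, induction libraries of both lines together differed at 11 of the 778 sites, 7 higher and 4 lower, against 2.59% of all events. These included the Sept8 sites (27.6 and -30.0 points), Pdlim5 (-24.7, adjusted p = 0.00047), Ifi27l1 (-15.1), Dhdds (12.7) and Prepl (-11.2). The Prepl call (adjusted p = 0.039) was lost with any 1 library left out other than mEx5 induction B. Skiv2l, the helicase of the SKI complex of RNA decay, was higher at site 3 of 3 (264 nt), with 3.3 to 11.9 in the 4 controls, 19 to 27.2 in knockdown and 20.5 to 29.5 in induction (16.9 points, adjusted p = 0.016). Its PSI changed by only 0.7 and 4.1 points from knockdown to induction. Adk, adenosine kinase, was called 28.8 points higher (adjusted p = 0.048) with 11 reads in its lowest library, a call lost with any 1 of the 12 libraries left out. Adk was not called on knockdown, where it changed by 1.0 points in pEx5 and 30.6 in mEx5. From knockdown to induction it changed by 25.3 and 0.7 points.

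Expression of the host genes and of the factors that act at 3' splice sites was read from the authors' deposited expression table. In the authors' deposited table, of 95 genes with a rising site and a value, 11.6% were higher and 34.7% lower on knockdown in both lines, and of 46 genes with a falling site 15.2% were higher and 28.3% lower. In the same authors' deposited table the genes of tested sites not called were higher in 12.4% and lower in 26.5%, and all genes in 10.1% and 13.7%. In bulk RNA a change of PSI cannot be told apart from unequal loss of one isoform or a change in the cells that give the RNA. Of 31 factors of 3' splice site recognition, 6 were higher and 11 lower in both lines in the authors' deposited table. Besides Puf60 itself (log2 fold changes -2.35 and -2.06), the authors' deposited table had lower Ptbp2, a polypyrimidine tract binding protein (-1.81 and -1.60), and Sf1, the branch point binding protein (-0.53 and -0.48). It had higher Ddx46, an RNA helicase of the U2 snRNP pathway (0.79 and 0.87). The small U2AF subunit gene U2af1 was not called, and U2af2, the large subunit, was lower at -0.31 and -0.34. The part of these other factors in the PSI changes was not tested.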

How the data were processed

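Polyadenylated RNA of 12 libraries was sequenced, 2 in each of 6 groups taken from the treatment labels and titles; the description of the libraries given doxycycline contradicts these and was not followed. PSI in percent comes from the authors' splicing table, whose quality text, of another unit, holds the corrected inclusion and exclusion reads behind each value. A deposited score per event and group and True/False calls stand in a further table by the authors. The deposited expression table gives RPKM, log2 fold changes and p-values with FDR by the authors. The submitters' processing notes name Salmon 0.14.1, edgeR and mm10, without roles. The aligner, filters and assembly of the splicing positions are not given in the sources used here.

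The test was limma 3.58.1 (R 4.3.3). It was fitted to the logit of inclusion reads plus 0.5 in each library, with precision weights from the reads (variance floor 0.01) and 1 coefficient per group. The fit covered 22767 events of all kinds, out of 222055 with at least 10 reads in all 12 libraries, whose mean PSI was from 5 to 95. A call needed a Benjamini-Hochberg adjusted p under 0.05 over all of these events and a change of 10 points. The method was tested on simulated data. For the sites described, PSI and the percentage recomputed from the reads differed by no more than 0.02 points in 99.93% of values. The reads are not independent molecules, and their number limits precision.

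Named sites are, for knockdown in both lines, the 12 largest called rises and falls with no overlap of 4 control and 4 knockdown libraries, 1 site per gene in each direction. For each other comparison they are the 3 largest calls in each direction, and for a gene family with 2 or more called sites all of them. The members and lists were chosen with earlier results of these data known. Alternatives were no weights, a pseudocount of 1 read, 20 reads, no limit on PSI, a replicate block, 15 points, 1 site per event, over 100 nt, and leaving out each library. Sites without 10 reads in all libraries were not analysed here, and 1 called site of a gene family, 1 family and 1 site beside the length threshold are not reported here.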

Additional observations from a re-analysis of the deposited data

Results flagged for a closer look

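The induction change differed between the pEx5 and mEx5 lines by a test of the difference itself (limma, the induction minus knockdown change of pEx5 minus that of mEx5) at 3 distant sites. At Sept8 site 3 of 3 the difference was 36.3 points, at Sept8 site 2 of 3 it was -38.1 points and at Ifi27l1 site 2 of 2 it was -26.3 points. The 2 Sept8 sites share their reads. In each case both mEx5 induction libraries lay nearer the control libraries than both pEx5 induction libraries did. Induced Puf60 was at 246 RPKM in pEx5 and 202 in mEx5 in the authors' deposited table, and its part in the difference was not tested.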

How the results depend on the processing

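Of 160 alternative counts over the 8 comparisons, 123 stayed within 1.5 times the reported count. With a change of at least 15 points, 97 sites were called on knockdown in both lines, 61 in mEx5, 33 on induction in pEx5 and 55 in mEx5. With an added length over 100 nt, so fewer sites, the counts were 67 for knockdown in both lines, 58 in pEx5, 42 in mEx5, and 22 and 41 for induction in pEx5 and mEx5. With no limit on the mean PSI they were 60 and 35 for knockdown in pEx5 and mEx5, 15 and 28 for induction, 6 between induction and control and 0 for a different induction change. With no weights the count for a different induction change was 0. The cause was not tested. Leaving out each library in turn gave 125 to 152 sites for knockdown in both lines, 84 to 125 in pEx5 and 49 to 93 in mEx5. It gave 24 to 53 and 30 to 76 for induction in pEx5 and mEx5, 7 to 11 between induction and control, and 0 to 2 for a different induction change. A lone library of a group was then assumed to vary like the other groups. The letters A and B did not pair the libraries: the deviations of same-lettered libraries correlated at -0.015 to 0.016 over the group pairs. With the replicate block, 149 sites were called on knockdown in both lines, 123 in pEx5 and 89 in mEx5, 50 and 77 on induction in pEx5 and mEx5, 8 between induction and control and 2 for a different induction change. Over all comparisons, 1952 alternative values for 109 results of named sites kept the call in 1666 cases, lost it in 286 and reversed it in 0. For 48 named sites on knockdown in both lines, 794 of 858 kept it and 64 lost it. Sites with few reads, such as Ankrd44 and Hdac10, limit how small a change could be seen.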
